A study of Mus musculus with 2 samples.

Results

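The mir-130 and mir-301 family is a small group of microRNA (miRNA) genes whose 3p products begin with the same bases. In the mouse genes listed here it comprises Mir130a, Mir130b, Mir301 (the source of miR-301a) and Mir301b, so the family made up 4 of the 2202 miRNA genes in the tables. The genes were chosen by family, matched by name through GENCODE M21, and the family itself was selected on its sense read counts, with the difference of Mir301 between the libraries already seen. Their levels and library differences are therefore a description, and no test was applied to them. MicroRNA sequencing, which reads small RNA (below 30 nucleotides per the labels), was applied to adult male mouse adrenal glands, taken whole at 8 to 10 months of age. The strain was 5xFAD/CAST: 5xFAD is a transgenic mouse model with neuronal expression from the Thy1 promoter, and CAST is a wild-derived strain. The labels do not say whether the transgene was present. There were 2 libraries, biological replicates 2 and 1 of 1 group, with separate tissue records under 1 donor record. Whether 2 animals were used is not clear from the labels. The spread between the libraries may therefore be partly technical, and may lie within 1 animal. There was no second group, such as a treated or control group or one of another genotype, to compare with.

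A miRNA guides Argonaute proteins to messenger RNAs that pair with its seed, bases 2 to 8 from its 5′ end, and lowers their output. miRNAs with 1 seed are thus expected to share targets. The family is known for repressing Pparg, the fat cell and vascular transcription factor, and for promoting proliferation of vascular cells in models of pulmonary hypertension. miR-130a is known from human endothelial cells, where it represses the antiangiogenic homeobox genes GAX and HOXA5. Each gene gives a hairpin precursor from which Dicer releases a 5p and a 3p arm.

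The mature 3p arms are shown because the seed defines the family. Sequences are those of RefSeq on GRCm38.p6, read 5′ to 3′, with the seed in capitals. All 4 genes matched the RefSeq table by symbol. The fourth 3p arm, miR-301b-3p, has no mature entry there, so its sequence is not shown and its seed was not checked here.
miR-130a-3p: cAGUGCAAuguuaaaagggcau
miR-130b-3p: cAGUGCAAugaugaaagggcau
miR-301a-3p: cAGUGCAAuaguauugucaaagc

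Counting positions from 1 at the 5′ end, miR-130a-3p and miR-130b-3p differed at 2 of 22 bases, by U11A and A13G. miR-130a-3p and miR-301a-3p were identical over their first 9 bases and differed at 10 of the 22 compared, starting with G10A. The 3 arms were thus alike through the seed, both mir-130 arms differed from each other only at these central bases, and miR-301a-3p differed from them through most of its 3′ part.

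The 5p arms are shown because the deposited count of each gene includes both arms. Capitals mark the 5 bases that all of them share at the 3′ end.
miR-130a-5p: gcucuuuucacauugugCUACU
miR-130b-5p: acucuuucccuguugcaCUACU
miR-301a-5p: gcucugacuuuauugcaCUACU
miR-301b-5p: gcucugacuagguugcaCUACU

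Bases 2 to 8 of the 5p arms fell into 3 different seeds. miR-301a-5p and miR-301b-5p shared CUCUGAC and differed at 3 of 22 bases, U10A, U11G and A12G. The seed of miR-130a-5p was CUCUUUU and that of miR-130b-5p was CUCUUUC. A read of a 5p arm therefore belongs to another target group than a read of the 3p arm, and the tables do not separate the arms.

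The hairpins of 3 genes show how the arms lie in the precursor, with the mature arms in capitals. They are those of Mir130a, Mir130b and Mir301.
Mir130a: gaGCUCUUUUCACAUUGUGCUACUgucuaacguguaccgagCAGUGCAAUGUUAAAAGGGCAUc
Mir130b: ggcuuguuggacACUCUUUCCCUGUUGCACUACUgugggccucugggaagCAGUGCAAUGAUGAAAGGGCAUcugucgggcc
Mir301: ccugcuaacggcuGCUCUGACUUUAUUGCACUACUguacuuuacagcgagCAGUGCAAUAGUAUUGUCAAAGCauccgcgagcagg

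The annotated hairpins were 64 bases long for Mir130a, 82 for Mir130b, 86 for Mir301 and 97 for Mir301b. GC content was lowest in Mir130a, at 45.3%, and was 48.8% in Mir301, 53.6% in Mir301b and 56.1% in Mir130b. The folding energy computed with RNAfold was −22.1 kcal per mol for Mir130a, the shortest hairpin, −30.1 for Mir130b, −37.0 for Mir301 and −39.1 for Mir301b. The order of the folding energies followed the lengths of the hairpins. No member shared 20 bases with another annotated miRNA gene. The longest run in common was 17 bases between Mir130a and Mir6389, and 16 bases for each of the other members.

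The genes lie at 3 loci of GRCm38 (mm10). Mir130a (ENSMUSG00000065484.1) is at chr2:84741115-84741178 on the minus strand and overlaps no other annotated gene. Mir301 (ENSMUSG00000065589.1) is at chr11:87113004-87113089 on the plus strand, in an intron of Ska2, which encodes a kinetochore protein. Mir130b (ENSMUSG00000065572.1) at chr16:17124061-17124142 and Mir301b (ENSMUSG00000076288.1) at chr16:17124400-17124496 lie 257 bases apart on the minus strand, in an intron of 2610318N02Rik. Mir130b and Mir301b thus form a cluster within 1 host gene, and the other members stand alone, with no other miRNA gene of their strand within 10 kb.

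Sense counts were scaled to 1000000 sense miRNA reads per library (CPM), from totals of 3084602 reads in replicate 2 and 6783227 in replicate 1. A mature miRNA is read whole, so a read stands for either arm and no scaling by length was made. Without molecular identifiers, a read need not stand for a separate molecule. A ratio between genes still includes any capture bias of the library protocol. Multimapping reads, 32.1% of the table in replicate 2 and 30.3% in replicate 1, were assigned to no gene.

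Mir130a carried most of the family in both libraries. It had 12153 sense reads in replicate 2 and 21903 in replicate 1, equal to 3940 CPM and 3229 CPM. The mean was 3584 ± 503 CPM (SD, n = 2). Mir130a ranked 35 among all miRNA genes in replicate 2 and 39 in replicate 1, so it belonged to the abundant miRNAs of this tissue in each.

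Mir301 was the second member by mean CPM, at 228 ± 195 CPM (SD, n = 2), and its 2 libraries lay far apart. It had 1129 reads in replicate 2, or 366 CPM, and 615 reads in replicate 1, or 90.7 CPM. The library with fewer reads in all held more reads of Mir301. Its rank was 107 in replicate 2 and 174 in replicate 1.

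Mir130b, which differs from Mir130a by 2 bases in its 3p arm, was a minor gene at 131 ± 13.4 CPM (SD, n = 2). It had 433 reads in replicate 2, or 140 CPM, and 824 reads in replicate 1, or 121 CPM. Its rank was 163 in each library. Among the 4 members it had the smallest relative spread, with an SD of 10.2% of the mean, against 14.0% for Mir130a, 72.1% for Mir301b and 85.3% for Mir301.

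Mir301b was near the limit of what these libraries can measure. It had 14 reads in replicate 2, or 4.54 CPM, and 10 reads in replicate 1, or 1.47 CPM. The floor, 3 reads for a gene that shows none, lies at 0.973 CPM for replicate 2 and 0.442 CPM for replicate 1. The gene was thus read in both libraries, at 3.01 ± 2.17 CPM (SD, n = 2). The exact Poisson interval was 2.48 to 7.62 CPM in replicate 2 and 0.707 to 2.71 CPM in replicate 1, so each level is known only within a wide range.

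**Figure D1:**
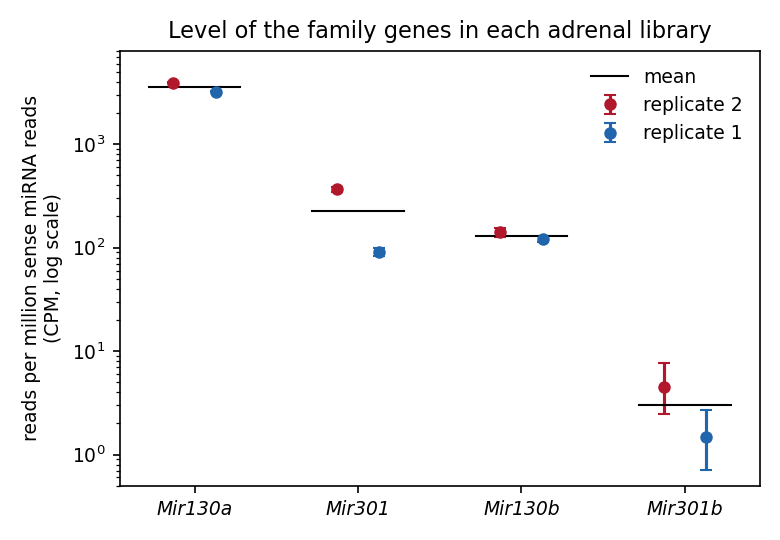
Level of each family gene in CPM (log axis), with replicate 2 on the left in red, replicate 1 on the right in blue, exact 95% Poisson intervals and the mean of both as a line. Mir130a stands at 3940 and 3229 CPM in replicates 2 and 1, Mir301b at 4.54 and 1.47 CPM, and Mir301 above Mir130b in replicate 2 but below it in replicate 1.

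The order of the members was Mir130a first, Mir301b last, and Mir301 and Mir130b not separated. A pair was called ordered when both libraries ranked it alike and both gaps in log2(CPM + 1) exceeded the library difference of either gene. By this rule 5 of the 6 pairs were ordered. Mir301 and Mir130b were the exception, with Mir301 2.61-fold higher in replicate 2 and at 0.746 of Mir130b in replicate 1. Mir130a exceeded Mir301 by 10.8-fold in replicate 2 and 35.6-fold in replicate 1. It exceeded Mir130b by 28.1-fold and 26.6-fold in replicates 2 and 1. The ratio between both mir-130 genes was therefore close in the libraries. Ratios to Mir301b rest on its 14 and 10 reads, and that of Mir130a was 868 and 2190 and that of Mir301 80.6 and 61.5 in replicates 2 and 1.

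As a whole the family held 0.445% of sense miRNA reads in replicate 2 (Wilson 95% interval 0.438 to 0.453) and 0.344% in replicate 1 (0.340 to 0.349). The mean was 0.395% ± 0.0713 (SD, n = 2). These intervals cover counting error within 1 library only, and without molecular identifiers they may be too narrow even for that. Within the family, Mir130a took 88.5% of reads (88.0 to 89.0) in replicate 2 and 93.8% (93.5 to 94.1) in replicate 1. Mir301 took 8.22% (7.78 to 8.69) in replicate 2 and 2.63% (2.44 to 2.85) in replicate 1. Mir130b took 3.15% (2.87 to 3.46) and 3.53% (3.30 to 3.77) in the same order of libraries. In replicate 2, Mir130a thus had a smaller part of the family and Mir301 a larger one, while the intervals of Mir130b overlapped. Mir301b took 0.102% (0.0608 to 0.171) and 0.0428% (0.0233 to 0.0788) in replicates 2 and 1.

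All 4 members read higher in replicate 2, by unequal amounts, as scaled here and under the 4 alternatives of scaling or column. The log2 difference of log2(CPM + 1), replicate 2 minus replicate 1, was 2.00 for Mir301, 1.16 for Mir301b, 0.29 for Mir130a and 0.21 for Mir130b. Without the pseudocount, the fold of CPM was 4.04 for Mir301 (exact 95% interval 3.66 to 4.46 for counting error), 1.22 for Mir130a (1.19 to 1.25) and 1.16 for Mir130b (1.03 to 1.30). For Mir301b it was 3.08 with an interval of 1.27 to 7.75, which covers the fold of Mir301 and the upper end of the interval of Mir130b. Mir130b itself was close to level, with a log2 difference of 0.11 under TMM scaling and 0.07 under DESeq2 size factors. The summed family stood 1.29-fold higher in replicate 2 (1.27 to 1.32), and without Mir130a 2.39-fold higher (2.23 to 2.57), at 511 CPM against 214 CPM. Each of these values sets 1 library against another, so none has a replicate check.

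**Figure D2:**
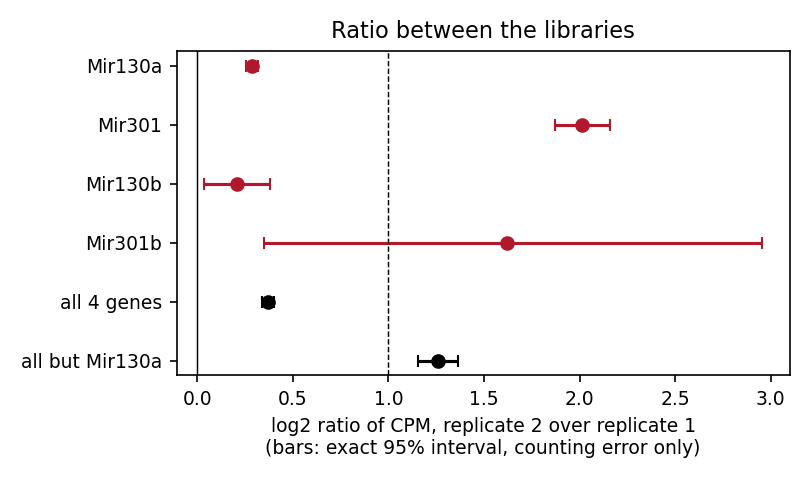
Log2 ratio of CPM, replicate 2 over replicate 1, for each gene (red) and for sums of genes (black), with exact 95% intervals for counting error and a dashed line at a 2-fold ratio. Mir301 lies past the line with a short interval, Mir130a and Mir130b lie near 0, and the interval of Mir301b crosses the line.

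Set beside all genes, the libraries differed little in most miRNAs. Of the 280 genes whose mean reached 10 CPM, 199 had a log2 difference under 0.5 in size, and the median log2 difference was 0.01. The share at least 2-fold apart was 10.7%, with 6.07% higher and 4.64% lower in replicate 2. Of the 4 members, 3 reached 10 CPM, and 1 of these, Mir301, was at least 2-fold higher in replicate 2, while 0 were 2-fold lower. Among genes higher in replicate 2, Mir301 had the second highest difference of the 280, between Mir26a-1 at 2.24 and Mir370 at 1.70. By absolute difference it ranked 5, since Mir31, Mir122 and Mir107 were lower in replicate 2 by more. Mir130a and Mir130b ranked 135 and 166 by absolute difference, so they lay among the many genes that varied little. Under edgeR's TMM scaling the 2-fold calls were 12 higher and 17 lower, and under DESeq2 size factors 8 higher and 17 lower, against 17 higher and 13 lower as scaled here. The median of all genes moved to −0.09 and −0.12, and Mir301 stood at 1.90 and 1.87 under these scalings.

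**Figure D3:**
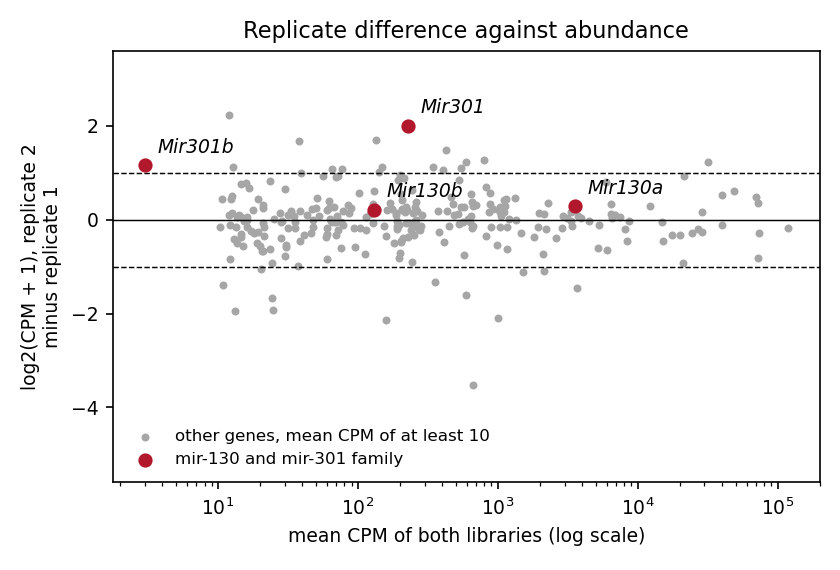
Difference in log2(CPM + 1), replicate 2 minus replicate 1, against mean CPM (log axis) for the other genes that reached 10 CPM (grey) and the 4 family genes (red), with dashed lines at a 2-fold difference. Mir301 lies near the top at 2.00, Mir130a and Mir130b lie close to 0, and Mir301b lies at the low end of abundance.

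Markers of other cells were read in the same libraries, since whole glands hold many cell types. The endothelial list (Mir126a and Mir126b) summed to 52519 CPM in replicate 2 and 92611 CPM in replicate 1, and was Mir126a almost alone, with Mir126b at 0 in replicate 2 and 0.590 CPM in replicate 1. The erythroid list of 3 genes summed to 2149 and 5556 CPM in replicates 2 and 1, a gap that came from Mir451a at 1949 and 5351 CPM, while Mir144 stood at 187 and 191 CPM and Mir486 at 12.6 and 14.2 CPM. The liver marker Mir122 stood at 57.7 and 257 CPM in the same order. Mir126a, Mir451a and Mir122 were thus lower in replicate 2, where Mir301 was higher. The neuroendocrine list of 4 genes summed to 87243 and 63615 CPM in replicates 2 and 1, mainly from Mir375 at 82443 and 58717 CPM. Mir7-2 was likewise higher in replicate 2, at 143 and 113 CPM, while Mir7b had 4423 and 4535 CPM and Mir7-1 233 and 250 CPM. Mir7-1, Mir7-2 and Mir486 each share 20 bases with another miRNA gene, so their counts are lower limits. The smooth muscle pair summed to 25630 and 29493 CPM and the 4 leukocyte genes to 693 and 610 CPM. Among the leukocyte genes, Mir223 stood at 73.6 and 38.3 CPM and Mir142 at 282 and 249 CPM. Mir150 had 191 and 162 CPM, while Mir155 was lower in replicate 2, at 147 and 161 CPM. In the striated muscle list, 4 of 5 genes had 0 reads in both libraries, but these 4 share 20 bases with another gene, so their level is not limited by that count. The part of cell composition in the difference of Mir301 was not tested. In whole tissue, fewer cells of a type and less of a miRNA per cell cannot be told apart.

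Within the chromosome 16 cluster, Mir130b far outnumbered Mir301b, although both lie in the same intron. The ratio of their reads was 30.9 in replicate 2 (exact 95% interval 18.2 to 57.0) and 82.4 in replicate 1 (44.6 to 172). Read the other way, Mir301b over Mir130b was 2.66-fold higher in replicate 2 than in replicate 1, with an exact 95% interval of 1.09 to 6.76 for counting error. The shift within the cluster was thus poorly determined, since it rests on 14 and 10 reads of Mir301b. The geometric mean of the ratios of Mir130b to Mir301b was 50.5. Among 80 pairs of neighbouring miRNA genes of 1 strand within 10 kb, with both means at least 10 CPM, the median ratio of the higher to the lower gene was 6.40, with quartiles of 1.93 and 24.1. Mir301b is below that limit. With a limit of 2 CPM, chosen after seeing the data so that the pair is included, there were 94 pairs with a median of 7.80, and 14 of them had a larger ratio than Mir130b over Mir301b. Genes that share 20 bases with another may be undercounted, which was not measured per gene, and 9 of these 14 pairs hold such a gene. Leaving out every pair with such a gene, also chosen after seeing the data, 57 pairs had a median of 5.69, and 5 had a larger ratio than Mir130b over Mir301b.

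**Figure D4:**
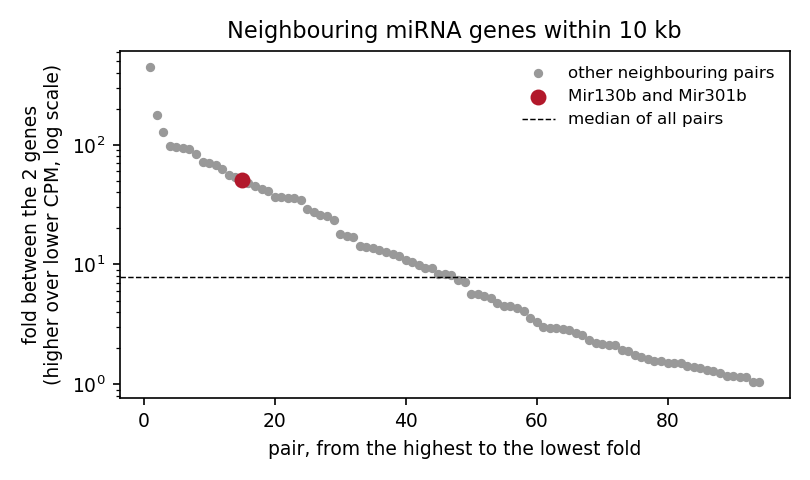
Ratio of the higher to the lower gene in CPM (log axis) for the 94 pairs of neighbouring miRNA genes within 10 kb on 1 strand and with both means of at least 2 CPM, ordered from high to low. The pair of Mir130b and Mir301b (red) lies at 50.5, above the median of 7.80 (dashed line), with 14 pairs above it.

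Other mouse genes carry the same seed, and those found had no assigned read here. Of 1738 mature miRNAs in the RefSeq table, 7 had AGUGCAA at bases 2 to 8, or 0.403%, and miR-301b-3p was not part of this search. Beside the 3 shown above, these are the following, with the seed in capitals.
miR-130c: cAGUGCAAuguuccaaggugug
miR-721: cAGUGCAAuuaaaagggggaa
miR-6341: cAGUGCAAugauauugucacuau
miR-6389: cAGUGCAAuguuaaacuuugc

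Mir130c, Mir721, Mir6341 and Mir6389 had 0 sense reads in replicate 2 and 0 in replicate 1, which leaves room for levels of up to 0.973 CPM and 0.442 CPM in these libraries. None of them shares 20 bases with another annotated miRNA gene. Among the genes found with this seed, every assigned read thus lay in the members, whose counts include the 5p arms.

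Relatives with a shifted seed are shown because they share part of it at another position. Capitals mark the run shared with miR-130a-3p, which is 7 bases in the mir-148 and mir-152 genes and 6 bases in the mir-19 genes, each starting at base 2.
miR-148a-3p: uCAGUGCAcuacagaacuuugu
miR-152-3p: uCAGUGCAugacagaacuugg
miR-19a-3p: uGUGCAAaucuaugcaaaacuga

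The run starts at base 1 of miR-130a-3p in miR-148a-3p and miR-152-3p, and at base 3 in miR-19a-3p, so the seeds overlap without being equal. Mir152, known for targeting the DNA methyltransferase Dnmt1, had 471 CPM in replicate 2 and 217 CPM in replicate 1. Mir148a had 205 and 94.4 CPM, and Mir148b 40.8 and 35.8 CPM in replicates 2 and 1. Of these 3 genes, 2 were at least 2-fold higher in replicate 2, against the 6.07% of all genes given above. Both stayed so under TMM scaling, with a log2 difference of 1.01 for Mir148a and 1.02 for Mir152. With the column for both strands it was 1.05 for each. Neither was 2-fold higher under DESeq2 size factors, where it was 0.98 for Mir148a and 0.98 for Mir152. With scaling to all reads Mir148a was just below 1 and Mir152 just above it. The mir-148 and mir-152 genes summed to 532 CPM, less than Mir130a alone at 3584 CPM. Mir19a, Mir19b-1 and Mir19b-2 stayed below 10 CPM, with between 0 and 6 reads per library, and Mir19b-1 and Mir19b-2 share 20 bases, so their counts are lower limits.

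The genes most like each member by their levels were found as the nearest in log2(CPM + 1) over the 2 libraries, among genes of at least 10 CPM. Those nearest to Mir130a were Mir378a, at a distance of 0.16, and Mir30e, at 0.17. Those nearest to Mir130b were Mir1193 at 0.04 and Mir25 at 0.08. Both mir-130 genes thus had close company. For Mir301 the nearest genes were Mir182, with 264 CPM (replicate 2) against 136 CPM (replicate 1), and Mir188, at 276 and 149 CPM, at distances of 0.75 and 0.82. For Mir301b, which lies below the limit of 10 CPM, the nearest were Mir26a-1 at 2.14 and Mir5113 at 2.36. The distances for Mir301b follow from the limit of 10 CPM and say nothing of how common its level was. Mir301 was farther from its nearest genes than either mir-130 gene was, and with 2 libraries the likeness is one of level and library difference only.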

How the data were processed

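The authors deposited raw read counts per miRNA gene, 1 table per library, in columns for both strands, the gene's strand and the other strand. The readme deposited with it names assembly mm10 and annotation GENCODE M21. Aligner and trimming: not given in the sources used here. Columns have no header and were identified by layout and totals, since the sense one held 91.8% (replicate 2) and 88.6% (replicate 1) of stranded assignments. A count belongs to a hairpin, not an arm, and CAST variants could lower it.

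All gene IDs matched GENCODE M21 (GRCm38), which supplied names and positions. Sense counts were scaled to the sense miRNA total, leaving out the mapping lines. Differences used log2(CPM + 1). Intervals (Wilson for shares, Clopper-Pearson for ratios, Poisson for levels) cover counting error. With 1 group, no test was run. Folding used RNAfold (ViennaRNA 2.7.2); scaling alternatives used edgeR 4.0.16 and DESeq2 1.42.0; other steps used Python 3.11.15 with scipy 1.17.1. The DESeq2 size factors, 0.707 for replicate 2 and 1.41 for replicate 1, were computed without a filter on level, low counts included. Genes with few reads could therefore set them, and values under these factors are a weak check of the scaling. Exact matches outside annotated miRNA genes were not searched. The 2-fold calls were tested on simulated counts with counting error only, centred on the genes simulated as unchanged. The ordering rule was tested on made-up levels. The other steps were not tested in this way.

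Members and lists were chosen with earlier results of these data known. Named genes were the 4 members, genes of the same seed, the 2 genes nearest each member, and genes of the lists. Up to 3 genes per list by mean CPM were planned, and more were named from some lists. Genes ranked beside or above Mir301 by library difference were named after seeing the data.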

Additional observations from a re-analysis of the deposited data

Results flagged for a closer look

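The opposite strand of Mir130a, which the comparisons do not use, held 5 reads in replicate 1, above the 3 reads that a count of 0 allows, and 2 reads in replicate 2. These are 0.0165% and 0.0228% of the sense reads of Mir130a in replicates 2 and 1. The other 3 members had 0 opposite-strand reads in both libraries.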

How the results depend on the processing

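Scaling to all reads in the table, which changes the denominator, gave mean values of 1766 CPM for Mir130a and 64.6 CPM for Mir130b and a family share of 0.194%. With the column for both strands, Mir130b averaged 147 CPM, although its reads were the same, 433 and 824 in replicates 2 and 1. Only the total to which they were scaled differed. The log2 difference of Mir130a, 0.29 as reported, was 0.19 under TMM, 0.15 under DESeq2 size factors, 0.18 with all reads and 0.22 with both strands. That of Mir301 was 1.87 under DESeq2 size factors and that of Mir301b 0.85 with all reads, below a 2-fold difference. Genes at least 2-fold apart numbered 30 as reported, 19 of 173 with a filter of 100 CPM, 58 of 703 with no filter and 68 of 280 at 1.5-fold. The pairs of members ordered numbered 5 of 6 under TMM, DESeq2 size factors and both strands. With 1 replicate left out, the values are those of the other replicate, from 0.344% to 0.445% for the family share and from 30.9 to 82.4 for Mir130b over Mir301b; differences between replicates cannot be had from 1 library. No paired analysis was possible because there is 1 group. Depth limits Mir301b, with 14 and 10 reads in replicates 2 and 1.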

Other observations

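Other miRNAs of the vascular program with which the mir-130 and mir-301 genes are known to act were read in both libraries. The list of genes of vascular proliferation and Pparg control had 6 genes, all of at least 10 CPM, and 0 were 2-fold higher or lower in replicate 2 (median log2 difference −0.07, against 0.01 for all 280 genes). With 10.7% of all genes 2-fold apart, 0 of 6 is near that background. It was led by Mir322, the mouse counterpart of human miR-424, with 17849 CPM (replicate 2) against 22397 CPM (replicate 1). Mir21a followed at 3166 and 3090 CPM, and Mir27b, known for repressing Pparg, at 2710 and 3062 CPM in replicates 2 and 1. Mir27a and Mir27b share 20 bases, so their counts are lower limits. Mir130a, at 3940 and 3229 CPM, stood beside Mir21a and Mir27b in level.

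The angiogenesis list had 10 genes, all of at least 10 CPM, and 0 were 2-fold apart in either direction (median log2 difference −0.05), which is near the background of 10.7% too. Mir126a, the endothelial miRNA, led it with 52519 CPM (replicate 2) against 92610 CPM (replicate 1). Mir378a stood at 3542 and 3142 CPM and Mir17 at 717 and 919 CPM in replicates 2 and 1. Mir378a shares 20 bases with another miRNA gene, so its count is a lower limit.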
